A study of Mus musculus with 8 samples.

Results

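The genes of the interleukins and of their receptors were followed in ATAC-seq peak lists of the mouse cerebral cortex after bilateral carotid artery stenosis (BCAS) or sham surgery. A gene was a member when it is protein-coding in GENCODE vM21 and its symbol starts with Il followed by a digit, and Il34 was left out. This gave 81 of 21938 protein-coding genes. By role they are 35 ligands, 37 receptor subunits, 8 soluble inhibitors, decoys or signaling antagonists and 1 secreted enzyme (Il4i1). The locus of a gene was its body with 3 kb on each side, and its covered length was the number of base pairs that the peaks of a library cover there, scaled so that all libraries have the same total.

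ATAC-seq maps open chromatin by where the transposase Tn5 inserts its adapters, so a peak marks accessible DNA and not the amount of a transcript. The sham group and the BCAS group held 4 libraries each, labelled as biological replicates. All mice were male C57BL/6 mice aged 14 weeks, and tissue was taken 3 weeks after surgery. BCAS mice carried a microcoil of 0.16 mm inner diameter on the right and of 0.18 mm on the left carotid artery, whereas sham mice had the operation without coils. The sample labels name the cerebral cortex of the right side, whereas the records of library quality name the cortex of the whole brain apart from cerebellum and olfactory bulb, and the side could not be settled.

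Interleukins are secreted proteins by which immune, glial and vascular cells signal to each other. The IL-1 family acts through receptors with an intracellular TIR domain and MyD88, and the IL-17 family through receptors that recruit Act1. The other large families act through Janus kinases and STAT factors: receptors of IL-2, IL-4, IL-7, IL-9, IL-15 and IL-21 share the common gamma chain (Il2rg), and those of the IL-6 family share gp130 (Il6st). In the brain, microglia are a main source of IL-1β and carry many of the receptors, and the 2 X-linked IL-1 receptor accessory protein-like genes, Il1rapl1 and Il1rapl2, are known from neurons, where IL1RAPL1 organizes synapses.

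The deposited lists held 107482 to 145102 peaks in sham and 119660 to 160848 in BCAS libraries, with summed lengths of 44.5 to 60.8 Mb and 48.9 to 66.3 Mb. Read counts are not part of the lists, the depth under any one peak is therefore unknown, and a locus without a peak was not necessarily closed. The recorded GC content of the reads splits the libraries into a class with a higher share (sham 1, 2 and 3 and BCAS 1) and one with a lower share (sham 4 and BCAS 2, 3 and 4), so that class and group are partly mixed up. All 8 marker genes of excitatory cortical neurons had a peak in at least 1 library. Summed over 15 microglial markers, covered length was 23701 to 30532 bp in sham and 31454 to 34815 bp in BCAS libraries, and 3 of the 15 loci (Itgam, Trem2 and Tyrobp) were higher in BCAS. Of 14 lymphocyte markers, of which Il2ra is itself a member, Cd79b, Cd8a, Ms4a1 and Nkg7 had no peak in any library. Others on the list, among them Cd3e, Cd4 and Cd79a, had a peak in at least 1 library. None of 5 tested loci passed by limma (4 at an unadjusted p under 0.05, all higher), and all 5 differences were positive. The sums over the 14 markers were 3688 to 4452 bp in sham and 5872 to 6204 bp in BCAS libraries. Over 8 markers of neutrophils and monocytes they were 1646 to 2665 bp and 2395 to 3223 bp, with Ly6g, Retnlg and S100a9 without a peak and none of 2 tested loci passing (1 at an unadjusted p under 0.05), and over 6 endothelial markers 11379.9 to 14378 bp and 15354 to 16868 bp, with none of 6 passing (2 at an unadjusted p under 0.05). The part of these markers in the results below was not tested. In bulk tissue, more cells of a type and more accessible chromatin per cell cannot be told apart.

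A peak was present in all 8 libraries at 28 of 37 receptor loci and at 16 of 35 ligand loci. The genes differ in length, with a median of 30.1 kb for receptors and 7.36 kb for ligands, and a longer locus has more room for peaks. No library had a peak at 15 members, among them 10 ligands. All 5 ligands of the IL-10 family (Il10, Il19, Il20, Il22 and Il24) belonged to these, as did the type 2 cytokine Il5, the IL-17 founding member Il17a, the IL-23 subunit Il23a and the IL-1 family ligands Il1f8 and Il1f9. The other loci without a peak were those of the antagonists Il1f10, Il13ra2 and Il22ra2 and of the receptor subunits Il2rg and Il9r.

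Summed over all members, covered length was 88629, 89081, 88799 and 92397 bp in sham and 93673, 94497, 92936 and 88604 bp in BCAS libraries, and these values overlap. A mean of at least 200 bp, the minimum for testing, was reached by 54 of 81 members (31 receptors, 19 ligands, 3 inhibitors or antagonists and Il4i1). Of these 54, Il1b and Il23r had a mean under the minimum in one group and so passed it through the other. All peaks of 8 tested members (Il4i1, Il18, Il18bp, Il10rb, Il17c, Il17rb, Il17rc and Il17re) lay in DNA shared with the locus of another gene, so that their values cannot be assigned to either gene. Covered length was higher in BCAS at 4 of these 54 loci (7.41%), namely Il21r, Il15, Il4ra and Il16, by limma with adjusted p under 0.05 over 17035 tested loci. Over all tested loci 3.16% were higher. None of the 54 members was lower, against 0.376% of all tested loci. At an unadjusted p under 0.05, 10 of the 54 members were higher and 4 lower, against 1807 and 748 of all 17035 tested loci. The members showed no common direction: 27 of 54 differences were positive and 27 negative, and their median on the log2 scale was 0.0046, beside 0.0014 over all tested loci.

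By family, 3 of the 12 tested loci of the common gamma chain and type 2 cytokines were higher (median log2 difference 0.10). No locus passed in the IL-1 family (13 tested, median 0.05), the IL-6 and IL-12 family (13 tested, median −0.09), the IL-10 family (4 tested, median 0.18) or the IL-17 family (10 tested, median −0.09) by limma. At an unadjusted p under 0.05, these families had 0, 2, 0 and 1 higher and 1, 2, 0 and 1 lower loci, in the same order. Il16, whose product is a chemoattractant that signals through CD4 and belongs to no other family here, was the fourth locus. The families were not tested against each other.

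**Figure D1:**
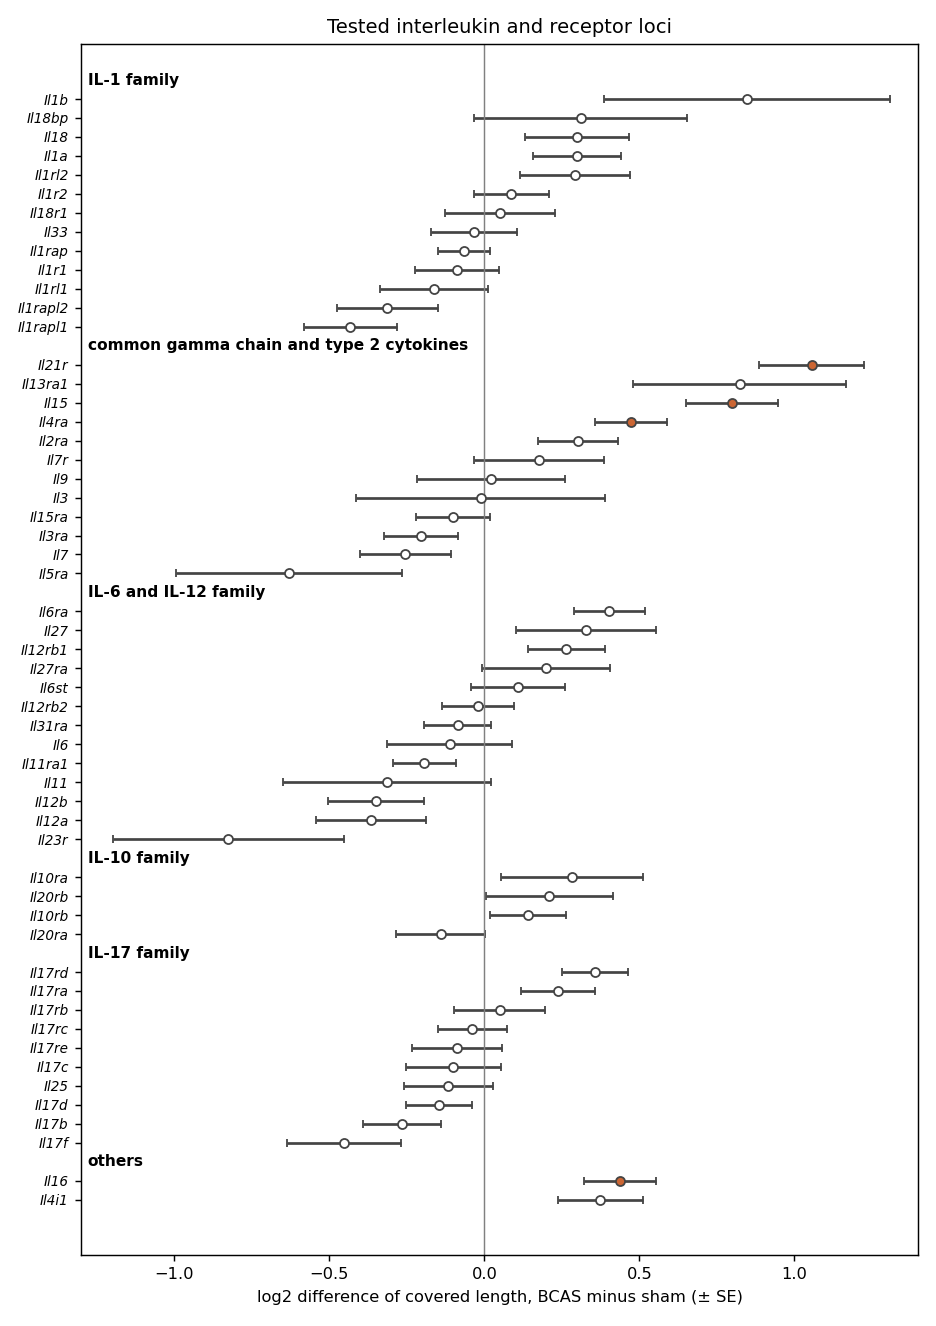
Log2 difference of covered length (BCAS minus sham) with its standard error for the 54 tested interleukin and receptor loci, ordered within each family; filled points have an adjusted p under 0.05 and open points do not. The 4 filled points, Il21r, Il15, Il4ra and Il16, lie to the right of 0, and the rest spread to both sides.

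Il21r, the receptor subunit that binds IL-21 and pairs with the common gamma chain, had the largest difference among the members that passed the test (ENSMUSG00000030745.9, chr7:125603429-125633570, plus strand). Its covered length was 763, 807, 995 and 1614 bp in sham libraries 1 to 4 and 2513, 2095, 2559 and 2083 bp in BCAS libraries 1 to 4. Every BCAS library was above every sham library, and sham 4 stood above the other sham libraries. The mean was 1045 ± 393 bp in sham and 2312 ± 259 bp in BCAS (SD, n = 4 each). The log2 difference was 1.06 ± 0.17 (SE), adjusted p = 0.002 by limma. The region at the start of the gene had a peak in all 8 libraries, as had a region in an intron 27.09 kb downstream of the start. A region in an intron 14.74 kb downstream of it was BCAS-only, meaning that all 4 BCAS libraries and none of the sham libraries had a peak there, and one at 4.552 kb was present in 3 BCAS libraries and in none of sham. A further intronic region at 10.31 kb was present in all BCAS libraries and in sham 2 and sham 3. In the gene body without flanks, where sham 4 lay close to the others, the values were 602, 711, 719.8 and 777 bp against 1770.1, 1446, 1671 and 1446 bp. The call held with read GC class as a covariate (log2 difference 0.90, adjusted p = 0.0364), although the difference was 1.37 within the class of higher GC and 0.43 within that of lower GC. Each such within-class value rests on a single library in one group (BCAS 1 or sham 4) and has no test. With a window of 3 kb around the start alone it did not (0.51 ± 0.18 (SE), adjusted p = 0.287).

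Il15, an interleukin that supports natural killer and memory T cells and is known from glia in the brain, was the ligand with the lowest p (ENSMUSG00000031712.10, chr8:82331632-82403222, minus strand). Its covered length was 879.8, 1612, 1408 and 1170.3 bp in sham and 1990.3, 2585, 2474 and 2224 bp in BCAS libraries. The groups did not overlap, and the lowest BCAS library (BCAS 1) lay above the highest sham library (sham 2). The mean was 1268 ± 316 bp in sham and 2318 ± 266 bp in BCAS (SD, n = 4 each). The log2 difference was 0.80 ± 0.15 (SE), adjusted p = 0.00565. The promoter region was present in all 8 libraries. 2 regions in one stretch of intronic DNA, 19.76 and 20.78 kb downstream of the start, were BCAS-only. The former was 406, 325, 345 and 332 bp wide in BCAS 1 to 4 and reached a −log10 q of 31.97 in BCAS 1, and the latter was 337, 351, 294 and 274 bp wide. Without scaling, with GC class as a covariate or with the window around the start alone the call was lost (adjusted p = 0.100, 0.0559 and 0.885). The gene of its private receptor subunit, Il15ra, did not pass, with 2918, 2456, 2423 and 3469 bp in sham and 2498, 2776, 2387 and 2687 bp in BCAS libraries (−0.10 ± 0.12 (SE), adjusted p = 0.811).

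Sequences of the BCAS-only regions are shown for Il21r and Il15, the members with the 2 lowest p-values. Each is the 100 bases on either side of the summit of the peak with the highest q, written 5′ to 3′ on the plus strand of GRCm38 (mm10). Capitals mark the letters GGAAGTG, the core of many ETS factor sites, or GAGGAAGT, a form of the PU.1 site that contains all but the last letter of the former, on either strand. PU.1 is the ETS factor of myeloid cells and microglia.
Il21r, chr7:125618069-125618269: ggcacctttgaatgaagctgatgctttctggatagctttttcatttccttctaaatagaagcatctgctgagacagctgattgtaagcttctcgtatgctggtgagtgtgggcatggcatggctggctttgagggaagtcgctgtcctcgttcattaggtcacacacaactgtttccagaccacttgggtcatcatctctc
Il15, chr8:82383361-82383561: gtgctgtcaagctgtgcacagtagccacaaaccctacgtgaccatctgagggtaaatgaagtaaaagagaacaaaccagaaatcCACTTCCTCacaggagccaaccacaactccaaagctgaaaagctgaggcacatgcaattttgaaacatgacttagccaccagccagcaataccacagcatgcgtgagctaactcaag
Il15, chr8:82382341-82382541: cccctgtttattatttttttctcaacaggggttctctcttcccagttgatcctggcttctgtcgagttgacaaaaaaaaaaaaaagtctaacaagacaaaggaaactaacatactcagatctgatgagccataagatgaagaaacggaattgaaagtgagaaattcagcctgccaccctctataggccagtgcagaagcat
The Il15 region at 19.76 kb holds both sets of letters on the minus strand, 15 to 16 bases from the summit, and next to them the RUNX letters TGTGGTT on the same strand, 2 bases from the summit. The Il15 region at 20.78 kb holds neither but has the IRF letters GAAANNGAA, 40 bases from the summit. The Il21r region holds none of the letters searched.

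Il4ra, the receptor subunit shared by IL-4 and IL-13, lies 24.0 kb upstream of Il21r on the same strand (ENSMUSG00000030748.9, chr7:125552120-125579474, plus strand), and the loci do not share DNA. Its covered length was 1296, 1819.5, 1626 and 1602 bp in sham and 2246, 2211, 2184 and 2424 bp in BCAS libraries. The groups did not overlap, and the BCAS libraries lay closer together than the sham libraries. The mean was 1586 ± 216 bp in sham and 2266 ± 108 bp in BCAS (SD, n = 4 each). The log2 difference was 0.47 ± 0.12 (SE), adjusted p = 0.0308. No region of the locus was BCAS-only. The regions 0.867 kb upstream and 8.485 and 9.375 kb downstream of the start were each present in all 4 BCAS libraries and in 1 sham library, which was sham 4, sham 3 and sham 2. The call was lost in 6 of 8 fits that leave out 1 library (log2 difference 0.39 to 0.53, adjusted p = 0.0293 to 0.0903) and with GC class as a covariate (adjusted p = 0.114). In the gene body alone the difference was larger (0.90 ± 0.15 (SE), adjusted p = 0.0059).

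Il16 spans 103 kb (ENSMUSG00000001741.12, chr7:83642825-83745726, minus strand), and its covered length was 2373, 2726, 2414 and 3006 bp in sham and 3863, 3262, 3182 and 4242 bp in BCAS libraries. The groups did not overlap, with BCAS 4 highest and BCAS 3 lowest within BCAS. The mean was 2629.9 ± 296 bp in sham and 3637 ± 505 bp in BCAS (SD, n = 4 each). The log2 difference was 0.44 ± 0.12 (SE), adjusted p = 0.0462. A region 23.05 kb downstream of the start, in an exon that holds an untranslated part of a transcript, was BCAS-only. A region 94.87 kb downstream, in DNA shared with the locus of the lipid transfer gene Stard5, had a peak in each of the BCAS libraries and in sham 4. Without DNA shared with another locus the call was lost (0.33 ± 0.15 (SE), adjusted p = 0.302), as it was in 6 of 8 fits that leave out 1 library (adjusted p = 0.0254 to 0.149). Around the start alone, the difference was −0.20 (adjusted p = 0.999). The stretch that holds the PU.1 and ETS letters in the exon region, 77 and 75 bases before its summit on the plus strand of GRCm38, is shown for comparison with Il15, with the same letters in capitals.
Il16, chr7:83722593-83722622: ccatcctcagaGAGGAAGTGaggccacgct

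**Figure D2:**
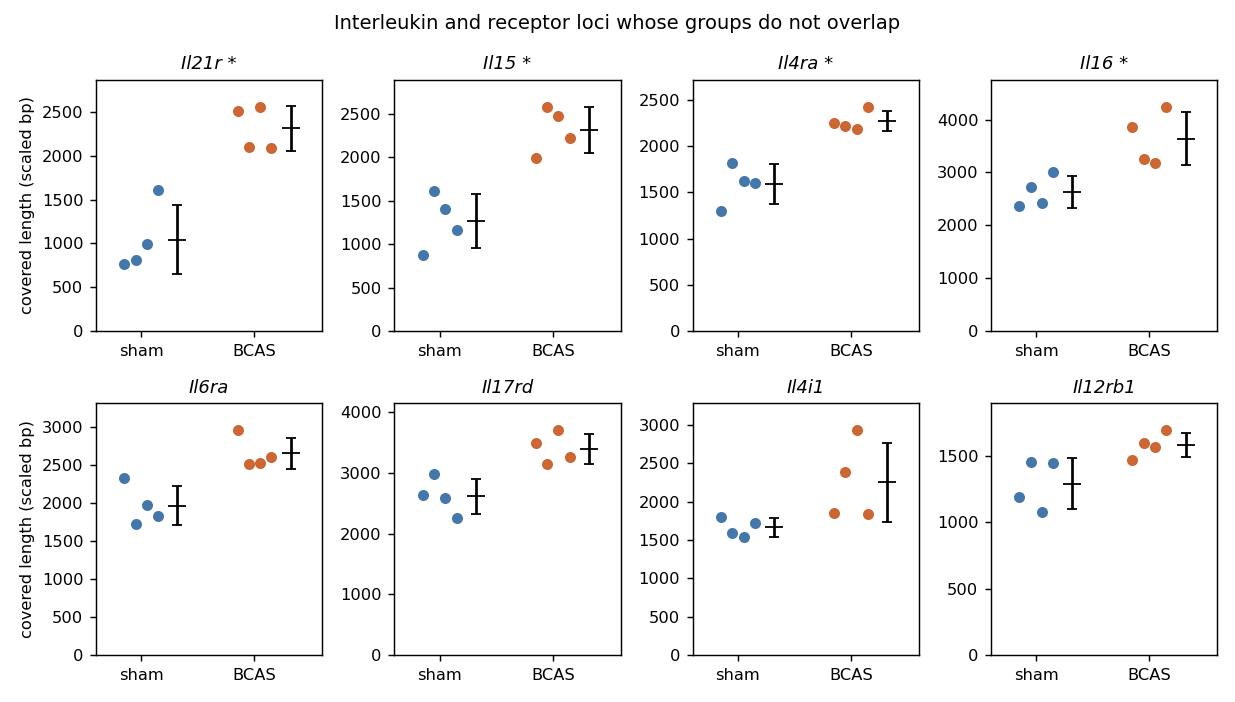
Covered length in scaled base pairs of each library (points, replicates 1 to 4 from left to right) at the 8 tested loci whose groups do not overlap, with mean and SD beside them; a star marks an adjusted p under 0.05. In each panel the 4 BCAS points lie above the 4 sham points, with the widest gap in base pairs at Il21r.

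**Figure D3:**
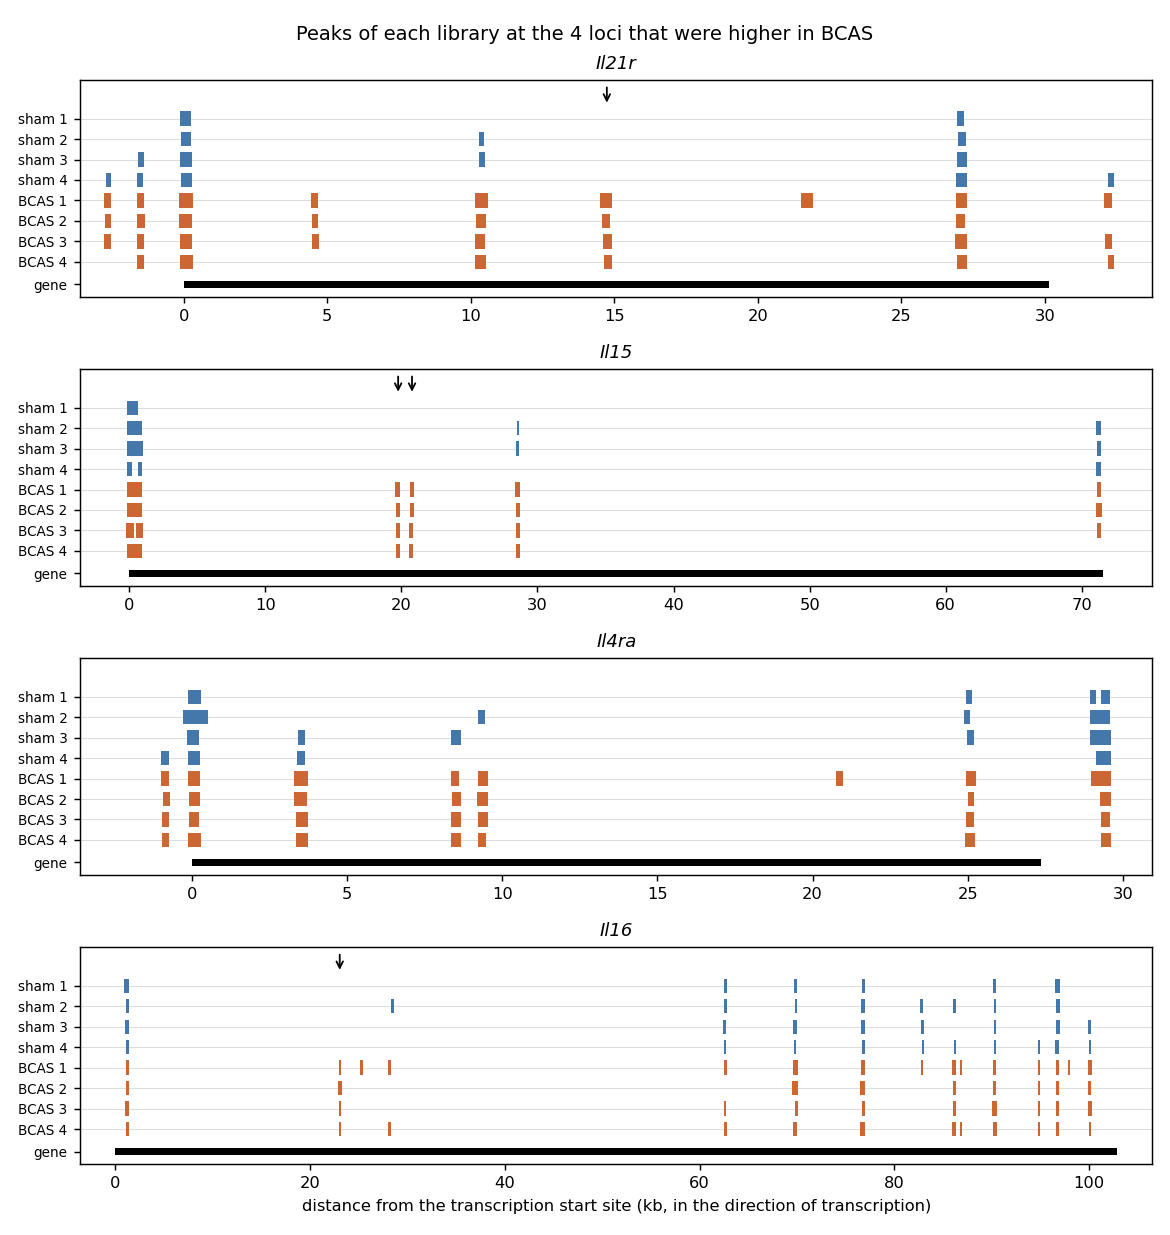
Peaks of the 8 libraries (rows, boxes drawn to scale) at Il21r, Il15, Il4ra and Il16 against the distance from the transcription start site in kb; arrows mark BCAS-only regions, and the black bar is the gene. In each panel every row has a box at or just downstream of the start, the boxes further upstream at Il21r and Il4ra are missing from several rows, and the boxes found in BCAS rows alone lie within the genes.

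Every BCAS library was above every sham library at 8 of 54 tested members (14.8%), against 6.03% of all tested loci, and below at none, against 2.47%. Besides the loci above these were Il6ra, Il17rd, Il4i1 and Il12rb1, none of which passed the test. Il6ra, the ligand-binding subunit for IL-6, had 2327, 1728, 1972 and 1835 bp in sham and 2956, 2513, 2533 and 2609 bp in BCAS libraries (0.40 ± 0.11 (SE), adjusted p = 0.0626). Its groups were separated by less than the range within sham, as were those of each member that passed. Without sham 1, the highest sham library of Il6ra, this locus passed (adjusted p = 0.0339). A region in an intron 13.94 kb downstream of its start was BCAS-only, with a −log10 q of 8.71, 4.81, 4.10 and 2.75 in BCAS 1 to 4. Il17rd, also known as Sef, an antagonist of fibroblast growth factor signaling that also takes part in IL-17 signaling, had 2637, 2977, 2589 and 2259 bp in sham and 3488, 3146, 3704 and 3262 bp in BCAS libraries (0.36 ± 0.11 (SE), adjusted p = 0.0794). All of its regions that were present in every BCAS library were also present in at least 2 sham libraries.

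Il4i1, whose peaks all lay in DNA shared with the loci of Atf5, Nup62 and Tbc1d17 and which encodes a secreted L-amino acid oxidase of myeloid and B cells induced by IL-4, had 1802, 1586, 1542 and 1726 bp in sham and 1852, 2382, 2929 and 1836 bp in BCAS libraries (0.37 ± 0.14 (SE), adjusted p = 0.166). BCAS 1 and BCAS 4 were only just above the highest sham library. Il12rb1, the subunit shared by the receptors of IL-12 and IL-23, had 1188, 1458, 1074 and 1446 bp and 1473, 1597, 1566 and 1693 bp (0.26 ± 0.12 (SE), adjusted p = 0.319). A region 1.782 kb upstream of its start, which the locus of the kinase gene Mast3 shares, was BCAS-only. In the window around the start Il12rb1 passed, with 354, 289, 242 and 368 bp against 518, 601, 692 and 703 bp (0.69 ± 0.16 (SE), adjusted p = 0.0345). Without the shared DNA the difference was within its error (−0.02 ± 0.13 (SE), adjusted p = 0.968), so the peak cannot be assigned to either gene.

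Merging the peaks of all libraries gave 197916 regions, and 348 of them lay in member loci. Of these 348, 125 had a peak in all 8 libraries and 57 in 1 library only, 20 of the latter in BCAS 1, the library with the longest list. More BCAS than sham libraries had the peak at 116 regions, more sham than BCAS libraries at 73, and equal numbers at 159. This split was not counted over all regions, so it is no result about the members. BCAS-only were 11 of 348 regions (3.16%), against 1.62% of all regions. Sham-only, in the reverse sense, were 2 (0.575%), against 0.0945% of all regions. The 11 regions belonged to 9 genes: 7 lay in introns, 3 upstream of a start within the flank and 1 in an exon with untranslated sequence. They were 271 to 588 bp wide (median 385 bp), and their highest −log10 q in a library ranged from 7.56 to 31.97, where it serves only to rank a peak within its list.

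**Figure D4:**
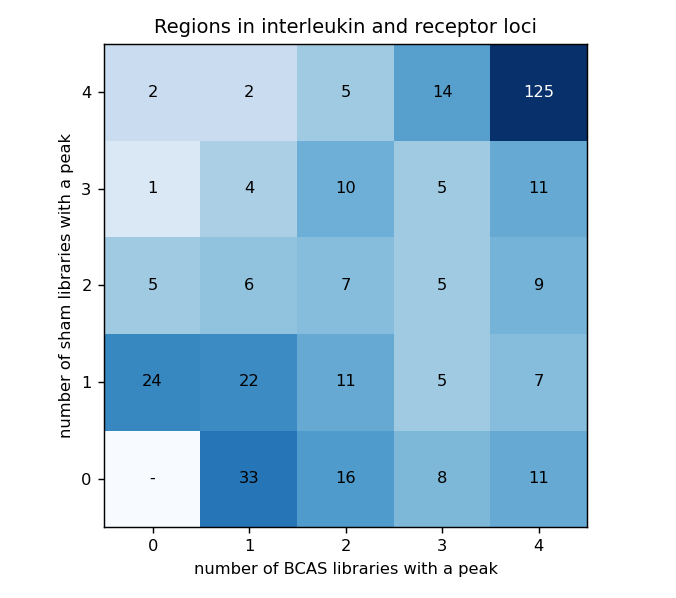
Number of merged regions in interleukin and receptor loci by the number of sham (vertical axis) and BCAS (horizontal axis) libraries with a peak; darker squares hold more regions, on a log scale. 125 regions sit in the corner of all 8 libraries, 11 in the BCAS-only corner and 2 in the sham-only corner.

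The IL-1 family held 4 of the 11 BCAS-only regions and both sham-only regions, and 121 of the 348 member regions (34.8%) lay in its loci. Il1rl2, the receptor of the IL-36 cytokines, had 2 BCAS-only regions, 2.565 kb upstream of its start and in an intron 31.50 kb downstream of it. Its covered length was 802, 1526, 1320.4 and 857 bp in sham and 1439, 1641, 1488 and 1023 bp in BCAS libraries, which overlap (0.29 ± 0.18 (SE), adjusted p = 0.498). With peaks of a −log10 q of at least 5 only, it passed (0.72 ± 0.17 (SE), adjusted p = 0.0244). Il1r1, the signaling receptor of IL-1, had a BCAS-only region in an intron 69.97 kb downstream of the annotated start of the gene, while the locus as a whole did not differ beyond its spread (−0.09 ± 0.14 (SE), adjusted p = 0.874).

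Il1a encodes IL-1α, which cells release on damage. A region 0.905 kb upstream of its start was BCAS-only, 233, 211, 263 and 234 bp wide in BCAS 1 to 4. The locus as a whole was dominated by a region that all libraries had and that the locus of the neighboring mitotic gene Ckap2l shares, and it did not pass (0.30 ± 0.14 (SE), adjusted p = 0.339). In the DNA that Il1a shares with no other locus, all sham libraries were listed at 0 and BCAS libraries had 357, 470.2, 274 and 527 bp, so that this DNA reached the minimum for testing only through BCAS, and neither a fold nor a p is given. Il1b, encoding IL-1β, had 0, 250.3, 236 and 0 bp in sham and 979.6, 481, 0 and 312 bp in BCAS libraries. The groups overlap, since sham 1, sham 4 and BCAS 3 had no peak at all (0.85 ± 0.46 (SE), adjusted p = 0.425). Il1b reached the minimum for testing only through BCAS (mean 443 bp, against 122 bp in sham). A region 2.429 kb upstream of Il1b, with the PU.1 and the AP-1 letters, had a peak in BCAS 1, 2 and 4 and in no sham library. With flanks of 10 kb, Il1b had 934, 1027, 849 and 820.1 bp against 2084, 1879.8, 1496 and 1723 bp, without overlap (0.84 ± 0.13 (SE), adjusted p = 0.00126).

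The sham-only regions were one 1.978 kb upstream of Il1f6, which encodes the ligand IL-36α, and one in an intron of Il18r1, the ligand-binding receptor subunit for IL-18, 11.56 kb downstream of its start. Il1f6 had 236, 192, 174 and 254 bp in sham and 0 bp in all BCAS libraries, from single peaks of 200 to 214 bp. It fell short of the minimum for testing, and with no such minimum it was counted as lower. That call rests on the same sham peaks by which the region was chosen, so neither a fold nor a p is given. With peaks of a −log10 q of at least 5 no sham-only region was left. That threshold also took peaks from the BCAS-only regions of Il1r1 (4.03 in BCAS 2), Il1a (4.61 in BCAS 2) and Il6ra. These regions were then no longer BCAS-only. The count of BCAS-only regions stayed at 11, so other regions were counted in their place. Il18r1 itself had 649, 709.5, 731 and 779 bp and 941, 936, 755 and 454 bp (0.05 ± 0.18 (SE), adjusted p = 0.952), and an intronic region 10.38 kb downstream of its start had a peak in 3 BCAS and no sham libraries.

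The sequences around the summits of the BCAS-only regions at Il1a, Il1rl2 (the intronic one), Il17ra, Il12rb1 and Il6ra are given as examples of which searched letters occur. Not shown are the upstream region of Il1rl2, which holds none of the letters, and the region of Il1r1, which holds the AP-1 letters only. Il17ra encodes the common receptor subunit of the IL-17 family, and its region lies in an intron 7.647 kb downstream of the start. The window, strand, build and capitals are as above.
Il1a, chr2:129310777-129310977: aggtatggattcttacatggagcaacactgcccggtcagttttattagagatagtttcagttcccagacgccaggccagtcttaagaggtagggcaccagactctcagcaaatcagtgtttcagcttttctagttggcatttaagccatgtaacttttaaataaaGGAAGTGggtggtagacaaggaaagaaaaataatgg
Il1rl2, chr1:40356014-40356214: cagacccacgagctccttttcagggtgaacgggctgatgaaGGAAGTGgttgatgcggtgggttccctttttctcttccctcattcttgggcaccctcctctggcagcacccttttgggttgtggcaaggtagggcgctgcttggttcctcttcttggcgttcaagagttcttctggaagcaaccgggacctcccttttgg
Il17ra, chr6:120470794-120470994: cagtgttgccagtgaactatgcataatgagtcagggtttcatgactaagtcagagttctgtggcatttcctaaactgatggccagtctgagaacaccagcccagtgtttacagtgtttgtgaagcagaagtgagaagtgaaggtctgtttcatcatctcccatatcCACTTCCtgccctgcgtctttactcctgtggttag
Il12rb1, chr8:70806567-70806767: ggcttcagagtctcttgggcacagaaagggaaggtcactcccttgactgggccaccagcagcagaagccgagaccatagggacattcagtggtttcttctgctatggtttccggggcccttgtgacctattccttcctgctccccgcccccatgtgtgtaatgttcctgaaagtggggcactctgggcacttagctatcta
Il6ra, chr3:89899158-89899358: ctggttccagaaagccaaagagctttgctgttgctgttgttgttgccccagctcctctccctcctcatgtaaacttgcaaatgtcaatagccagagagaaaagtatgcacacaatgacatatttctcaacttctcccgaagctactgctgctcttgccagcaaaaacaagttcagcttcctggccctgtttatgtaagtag
The first 3 hold the ETS letters, on the plus strand at Il1a and Il1rl2 and on the minus strand at Il17ra. The Il17ra region also holds the AP-1 letters TGANTCA and the RUNX letters, and the Il12rb1 region the IRF letters.

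The letters were searched on both strands in the 201 bases around the summit of each merged region. ETS letters, added to the search after the sequences had been seen, were in 5 of the 11 BCAS-only regions, in 12.9% of the 348 member regions and in 7.76% of all regions. PU.1 letters were in 2 of 11 (Il15 and Il16), in 16 of 348 member regions and in 2.92% of all regions. The remaining searches gave 2 of 11 for IRF (6.60% of all regions), AP-1 (15.0%) and RUNX (4.50%), and none of 11 for C/EBP (TTGCNNAA, 9.78%), NF-kB (GGGNNTTTC, 2.57%) and STAT (TTCNNNGAA, 6.61%). Over the whole genome, 3206 regions were BCAS-only, and 15.4% of them held PU.1, 23.8% ETS, 10.8% IRF, 11.2% AP-1, 8.14% RUNX, 15.1% C/EBP, 4.34% NF-kB and 5.99% STAT letters. Some regions held several sets of letters, and PU.1 and ETS letters overlap. A match of letters is a description of the sequence and does not show that a factor binds.

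Among the other genes of the IL-1 family, values scattered around 0. Il33, encoding an alarmin that in the brain is made by oligodendrocytes and astrocytes, had 1551, 1872, 1297 and 1715 bp in sham and 1272, 1964, 1579 and 1474 bp in BCAS libraries (−0.03 ± 0.14 (SE), adjusted p = 0.961). Its receptor gene Il1rl1 (ST2) had 668, 774, 699 and 622 bp and 458, 575, 520.5 and 879 bp (−0.16 ± 0.17 (SE), adjusted p = 0.781). Both pairs of groups overlap. Il18, whose product is cut by caspase-1, gave 0.30 ± 0.17 (SE), adjusted p = 0.446, and Il18bp, its soluble inhibitor, 0.31 ± 0.34 (SE), adjusted p = 0.796. The decoy receptor gene Il1r2 gave 0.09 ± 0.12 (SE), adjusted p = 0.856, and the shared accessory subunit Il1rap −0.07 ± 0.08 (SE), adjusted p = 0.83. Il1rn, the receptor antagonist, was below the minimum for testing, with 0, 0, 229 and 0 bp in sham and 394, 0, 0 and 792 bp in BCAS libraries.

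Il1rapl1, which spans 1375 kb on the X chromosome, had the lowest unadjusted p among the members with a negative difference. Its covered length was 6829.6, 6706, 8134 and 5235 bp in sham and 6258, 5847, 3833 and 4014 bp in BCAS libraries. The groups overlap, since sham 4 lay below BCAS 1 and BCAS 2, and the difference did not pass (−0.43 ± 0.15 (SE), adjusted p = 0.138). Without sham 4 it did (log2 difference −0.54, adjusted p = 0.0417). Il1rapl2 gave −0.31 ± 0.16 (SE), adjusted p = 0.395. Over 8 markers of excitatory neurons, summed covered length was 57421 to 63722 bp in sham and 51947 to 63225 bp in BCAS libraries, 6 of 7 tested loci had a negative difference and none passed (0 at an unadjusted p under 0.05), and their part in the values of Il1rapl1 was not tested.

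Of the other receptors of type 2 and common gamma chain cytokines, Il13ra1, the partner of Il4ra in the type II IL-4 receptor, had 344, 244, 584 and 0 bp in sham and 946, 301, 598 and 610.4 bp in BCAS libraries (0.82 ± 0.34 (SE), adjusted p = 0.248). The groups overlap and sham 4 had no peak. With GC class as a covariate it passed (log2 difference 1.39, adjusted p = 0.0381). Il2ra, the high-affinity subunit for IL-2, gave 0.30 ± 0.13 (SE), adjusted p = 0.266, and Il7r, which binds IL-7, 0.18 ± 0.21 (SE), adjusted p = 0.814. The ligand genes Il2 and Il13 were nearly without peaks: Il2 had 1 in BCAS 1 alone, and Il13 in sham 3 and BCAS 1. Il4 and Il21 had a peak in 3 libraries of each group. Il9 and Il3, both tested, gave log2 differences of 0.02 and −0.01.

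In the IL-6 and IL-12 family, Il6 had 651, 497, 726 and 971 bp in sham and 395, 888, 579.8 and 734 bp in BCAS libraries, from a single region at its start that all libraries had (−0.11 ± 0.20 (SE), adjusted p = 0.897). The groups overlap. The gp130 gene Il6st gave 0.11 ± 0.15 (SE), adjusted p = 0.854 and Il11ra1, whose reads may be shared with the closely related copy Il11ra2, −0.19 ± 0.10 (SE), adjusted p = 0.405. The mean covered length of Il11ra1 was 6078 bp in sham and 5292 bp in BCAS, mostly in DNA shared with other loci. Without that DNA it had 644, 951, 510 and 596 bp in sham and 463.5, 561, 532 and 507 bp in BCAS libraries. Il12b, the subunit shared by IL-12 and IL-23, had 1543, 1527, 1034 and 1313 bp and 1292, 984, 748 and 1076 bp, which overlap (−0.35 ± 0.15 (SE), adjusted p = 0.288). Il23r, the IL-23 receptor, had 664, 224, 332 and 276 bp and 187, 408, 0 and 0 bp, with no peak in BCAS 3 and BCAS 4 (−0.83 ± 0.37 (SE), adjusted p = 0.298). Il23r reached the minimum for testing only through sham (mean 374 bp, against 149 bp in BCAS). Il12rb2 gave −0.02 ± 0.12 (SE), adjusted p = 0.971. Il27 and its receptor gene Il27ra gave 0.33 ± 0.23 (SE), adjusted p = 0.579 and 0.20 ± 0.21 (SE), adjusted p = 0.774. In the DNA that Il27ra shares with no other locus, only BCAS 2 had covered length (204 bp). A region 0.097 kb upstream of the start of Il27 had a peak in 3 BCAS and no sham libraries, and with flanks of 10 kb, which take in more of the neighboring loci, Il27 passed (0.67 ± 0.17 (SE), adjusted p = 0.0253).

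In the IL-10 family the receptor genes alone had peaks. Il10ra, the ligand-binding subunit, had 568, 369, 622 and 891 bp in sham and 1069, 478, 1079 and 579 bp in BCAS libraries, which overlap (0.28 ± 0.23 (SE), adjusted p = 0.671). With flanks of 10 kb its values were 881, 875, 1114 and 2567 bp and 2516, 2496, 2599 and 2328 bp. There sham 4 stood with the BCAS libraries and above BCAS 1, 2 and 4, so the groups still overlapped, although the locus passed (0.90 ± 0.21 (SE), adjusted p = 0.0189). Il10rb, the shared second subunit, gave 0.14 ± 0.12 (SE), adjusted p = 0.699.

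In the IL-17 family, all 5 tested ligands had a negative difference, from −0.45 (Il17f) to −0.10 (Il17c), and none passed (1, Il17f, at an unadjusted p under 0.05). Il17f had 685, 767, 928 and 817 bp in sham and 522, 430.4, 837 and 392 bp in BCAS libraries, and BCAS 3 reached into the range of sham (−0.45 ± 0.18 (SE), adjusted p = 0.228). With peaks of a −log10 q of at least 5 it passed as lower. Il17ra had 3956, 3451, 2704 and 4026 bp and 3657, 4426, 4438 and 4149.5 bp, which overlap (0.24 ± 0.12 (SE), adjusted p = 0.375). The 3 further receptor genes Il17rb, Il17rc and Il17re lay between −0.09 and 0.05. All peaks of these 3 genes and of the ligand gene Il17c lay in DNA shared with another locus, so their values cannot be assigned to either gene.

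Genes that act with interleukins but are no members gave a further view, from a list of 58 adaptors, kinases, STAT factors, regulators and related cytokines. Of 55 tested, 9 were higher in BCAS and none lower, against 3.16% and 0.376% of all tested loci. At an unadjusted p under 0.05, 15 of the 55 were higher and 1 lower, against 1807 and 748 of all 17035 tested loci. Of the differences, 40 were positive and 15 negative (8579 and 8456 over all tested loci), and the median was 0.11. Csf2rb, the beta chain shared by the receptors of IL-3, IL-5 and GM-CSF, had 284, 556, 568 and 343 bp in sham and 1012, 1404, 1614 and 1183 bp in BCAS libraries, without overlap (1.25 ± 0.18 (SE), adjusted p = 0.00101). The inflammasome genes Nlrp3 and Casp1, whose products form the complex that releases active IL-1β and IL-18, gave 0.69 ± 0.16 (SE), adjusted p = 0.0179 and 1.28 ± 0.33 (SE), adjusted p = 0.0408. Ptpn6 (SHP-1), a phosphatase that dampens cytokine receptor signaling, gave 0.67 ± 0.12 (SE), adjusted p = 0.00348, and Stat5b, a STAT factor downstream of the common gamma chain, 0.51 ± 0.13 (SE), adjusted p = 0.0314. Gab2, a docking adaptor, gave 0.44 ± 0.11 (SE), adjusted p = 0.03. Zc3h12a (Regnase-1), which degrades Il6 and other cytokine mRNAs, gave 0.52 ± 0.13 (SE), adjusted p = 0.0327, and Clcf1, a cytokine of the IL-6 family, 0.87 ± 0.22 (SE), adjusted p = 0.033. Osm, encoding oncostatin M, was listed at 0 in all sham libraries and had 679.6, 212, 582 and 496 bp in BCAS libraries. It reached the minimum for testing only through BCAS, neither a fold nor a p is given, and 8 higher loci are left without it. Csf2, encoding GM-CSF, had no peak in any library. The count of higher loci on this list fell to 2 without BCAS 1 or in the window around the start.

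Across settings, the 4 higher members differed in how firmly they stood. Il21r passed in 13 of 14 other settings and in all 8 fits that leave out 1 library (log2 difference 0.95 to 1.26, adjusted p = 0.000115 to 0.0179). Il15 passed in 11 of 14 and in all 8 (0.66 to 0.91, adjusted p = 0.00292 to 0.021). Il4ra passed in 9 of 14 and in 2 of 8, and Il16 in 6 of 14 and in 2 of 8.

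**Figure D5:**
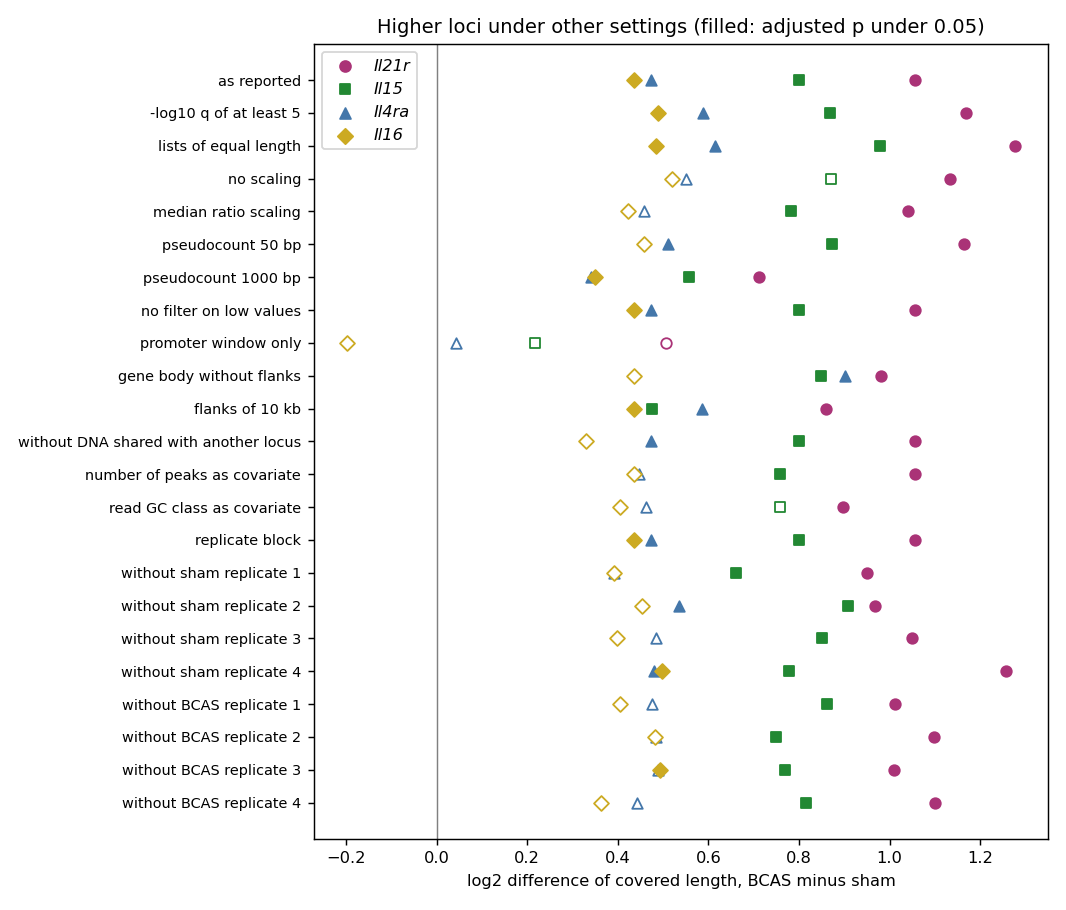
Log2 difference of covered length (BCAS minus sham) of Il21r, Il15, Il4ra and Il16 as reported, under 14 other settings and in the 8 fits that leave out 1 library; filled symbols have an adjusted p under 0.05. Il21r is filled in every line but the window around the start, and apart from Il16 in that window all symbols lie to the right of 0.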

How the data were processed

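ATAC-seq was measured in 4 sham and 4 BCAS libraries. Per the labels, the authors used FastQC, Trim Galore, Bowtie2 2.3.4.3 (mm10), SAMtools 1.9 and MACS2. The deposited lists give each peak's position, the authors' integer score, their fold enrichment as a ratio at the summit, their −log10 p and −log10 q, and the summit. The deposited score and fold ratio were not used, and −log10 values served to rank peaks within a list or as a threshold. How MACS2 was set and whether Tn5 offsets were applied is not given in the sources used here.

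Together, the lists held 1029810 peaks, and those on 21 chromosomes were used. Genes came from GENCODE vM21 and sequence from GRCm38. Covered length was scaled to the mean library total, increased by 200 bp and log2 transformed, so that differences of weakly covered loci are understated. Loci with a mean of 200 bp or more (17035) went into limma 3.58.1 (R 4.3.3, variance trend), with two-sided p-values adjusted by Benjamini-Hochberg over all of them. The labels call the libraries biological replicates. Regions were peaks merged at an overlap of 1 bp. Python 3.11.15, numpy 2.4.6, pandas 2.3.3, pysam 0.24.0 and matplotlib 3.10.9 were used, and the fit was tested on simulated data.

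Members named were those that passed the test, those whose groups did not overlap, those with a region in every library of only one group, and a fixed list of 34. Il2ra, Il1rapl2, Il11ra2, Il17c, Il17f, Il17rb, Il17rc, Il17re, Il9, Il3, Il2, Il13, Il4, Il21 and the members without a peak, besides Il10 and Il2rg, were named after their values had been seen. Members and lists were chosen with earlier results of these data known. Alternatives were 14 other settings and leaving out each library. The value of 1 lymphocyte marker is not reported here.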

Additional observations from a re-analysis of the deposited data

Results flagged for a closer look

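In 1 of 76 groups (the sham and the BCAS values of 38 named members), 1 library stood far from the others: at Il1rn, sham 3 had 228.6 scaled bp of peaks while the other 3 sham libraries had none. Groups with 0 in all libraries, as at Il10 and Il2rg, have no spread and were not screened. In groups of 4 continuous values, about 1 in 20 would stand apart in this way by chance. With 3 values of 0 the gap always equals the whole range, so that rate does not apply to Il1rn. The sham 3 value comes from a single peak, and 2 BCAS libraries also had peaks there (394 bp in BCAS 1 and 792 bp in BCAS 4).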

How the results depend on the processing

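Among the members, 4 loci were higher and none lower. The count of higher loci fell to 1 without scaling (Il21r) and in the window around the start (Il12rb1), and to 2 with median ratio scaling, with the number of peaks or with read GC class as a covariate; it rose to 7 with flanks of 10 kb. The count of lower loci became 1 at a −log10 q of at least 5 (Il17f) and with no filter on low values (Il1f6). Leaving out 1 library gave 2 to 4 higher and 0 to 1 lower members. It fell to 2 without sham 3, BCAS 1, BCAS 2 or BCAS 4, and the locus lower without sham 4 was Il1rapl1. Il16 turned to −0.20 in the window around the start. For all loci, 538 higher and 64 lower became 222 and 1 without scaling, 348 and 24 with median ratio scaling, 184 and 6 around the start, 245 and 8 with GC class, and 284 to 666 and 25 to 90 when 1 library was left out. For the pathway list, 9 higher loci became 4 with lists of equal length, 3 without scaling, 4 with median ratio scaling, 2 around the start, 4 with the number of peaks, 4 with GC class, and 2 to 9 when 1 library was left out. Of the regions, 11 BCAS-only became 19 when 3 libraries of a group sufficed and 11 to 16 when 1 library was left out. At a −log10 q of at least 5 their number stayed at 11, but not all were the same regions. The 2 sham-only regions became 0 at a −log10 q of at least 5, 1 with lists of equal length, 1 in gene bodies, and 2 to 4 when 1 library was left out. No other scaling moved the median of all loci by over 0.1. The causes of these changes were not tested.

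Replicate numbers were not treated as pairs in the reported fit. The correlations of same-numbered libraries were −0.16, −0.01, −0.10 and 0.14. Differently numbered libraries were not compared with them, so whether the numbers pair the libraries was not settled. With the replicate block, 4 members were higher and 1 lower (Il1rapl1, log2 difference −0.43, adjusted p = 0.0137), and over all loci 778 were higher and 160 lower.

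With 4 libraries a group, small differences were not detectable, and the lists hold no reads below the peak threshold, so that a covered length of 0 does not show closed chromatin.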

Other observations

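A further 8 regions in member loci had a peak in 3 BCAS libraries and in none of sham (2.3% of 348), beside 1.66% of all regions, and 1 had the reverse (0.287%), beside 0.498%. They lay at Il18r1, Il1b, Il21, Il6ra, Il4i1, Il21r, Il27 and Il10ra. Those upstream of Il1b and in an untranslated exon of Il4i1, 24.34 kb downstream of the start in DNA that the locus of Tbc1d17 shares, held the PU.1 letters. These regions were chosen after their values had been seen and were not tested.

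Regions with a peak in all 4 BCAS libraries and in 1 sham library numbered 7, of which 3 lay at Il4ra and 1 each at Il15ra, Il17ra, Il16 and Il7r. The reverse, a peak in all 4 sham libraries and in 1 BCAS library, also occurred, as in introns of Il1rapl1 and Il1rapl2. The share of either pattern over all regions was not counted, so the number is no result about the members.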
